A study of Rattus norvegicus with 6 samples.

Results

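Transcripts of the respiratory chain and of ATP synthase were compared between 3 rat esophageal tumor cell lines and normal rat esophageal cells. The genes were all those on the array whose annotated symbol begins with Nduf, with Sdha to Sdhd, with Uqcr, with Cox4 to Cox8 or with Atp5, which gave 38 of the 3158 named genes. Of these, 12 belong to complex I, 5 to complex II, 5 to complex III, 7 to complex IV and 9 to complex V. A further probe set that matches the pattern carries several symbols and was left out. Among the complex II entries, Sdhaf2 and Sdhaf3 are assembly factors and not subunits, and Ndufa4 was counted with complex IV, where its protein is found, although its name places it in complex I.

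The tumor lines JA, JB and Amy were derived from esophageal tumors that arose under reflux, the return of stomach or bowel contents into the esophagus. Each was hybridized on 2-colour cDNA arrays against 1 pool, an equal mixture of the lines Normal1 and Normal2. There were 6 arrays, 2 for each line with Cy3 and Cy5 exchanged, so both arrays of a line hold the same RNA in swapped dyes and each line is 1 replicate. The pool is the only control sample, it is the same for all lines, and rat strain, passage and culture conditions are not given in the sources used here. Values are log2 ratios of tumor line over normal pool, and a fold is 2 raised to that ratio. The direction is likely rather than settled, because it rests on which name comes first in the titles, and the base of the logarithm was taken as 2. A ratio holds no level, so neither the abundance of a transcript nor the presence of a cell type marker can be read from it. In such bulk RNA, fewer cells of a kind and less RNA per cell cannot be told apart.

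The respiratory chain is a set of protein complexes in the inner mitochondrial membrane that passes electrons from NADH (complex I) and succinate (complex II) through ubiquinone, complex III and cytochrome c to oxygen at complex IV. Complexes I, III and IV pump protons as they do so, and ATP synthase, or complex V, uses the return of these protons to make ATP. All the genes measured here are nuclear; a few core subunits are encoded by mitochondrial DNA, and 0 of those 13 genes were measured by name. The nuclear subunits are made in the cytosol, imported and assembled with the mitochondrial ones, and their genes are known to share binding sites for the transcription factors NRF1, GABP (an ETS factor) and YY1.

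Most of the 38 genes differed little between the tumor lines and the normal pool. At an adjusted p under 0.05 (limma, over 7180 features), 8 genes were higher in the tumor lines, 5 were lower and 25 did not pass. Among all features 53.5% were called, 20.7% higher and 32.8% lower, so 13 of 38 (34.2%) is below the background share, with the higher share (21.1%) close to it and the lower share (13.2%) below it. The sizes were small as well. Means of at least 1 on the log2 scale, a change of 2-fold, were reached by 2 genes, Cox6a1 above and Ndufs4 below, against 22.3% of all features, and means of at least 0.5 by 10 genes (26.3%) against 50.3%. The median of the 38 means was -0.049, against -0.12 for all features. The middle of the distribution, from the 25th to the 75th percentile, ran from -0.21 to 0.34 for these genes and from -0.66 to 0.35 for all features. The deposited ratios were not centred on 0. With each array centred on its median, which shifts these ratios up by 0.12, 12 of the 38 genes were higher and 3 lower, while 25.7% of all features were higher and 27.6% lower.

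**Figure D1:**
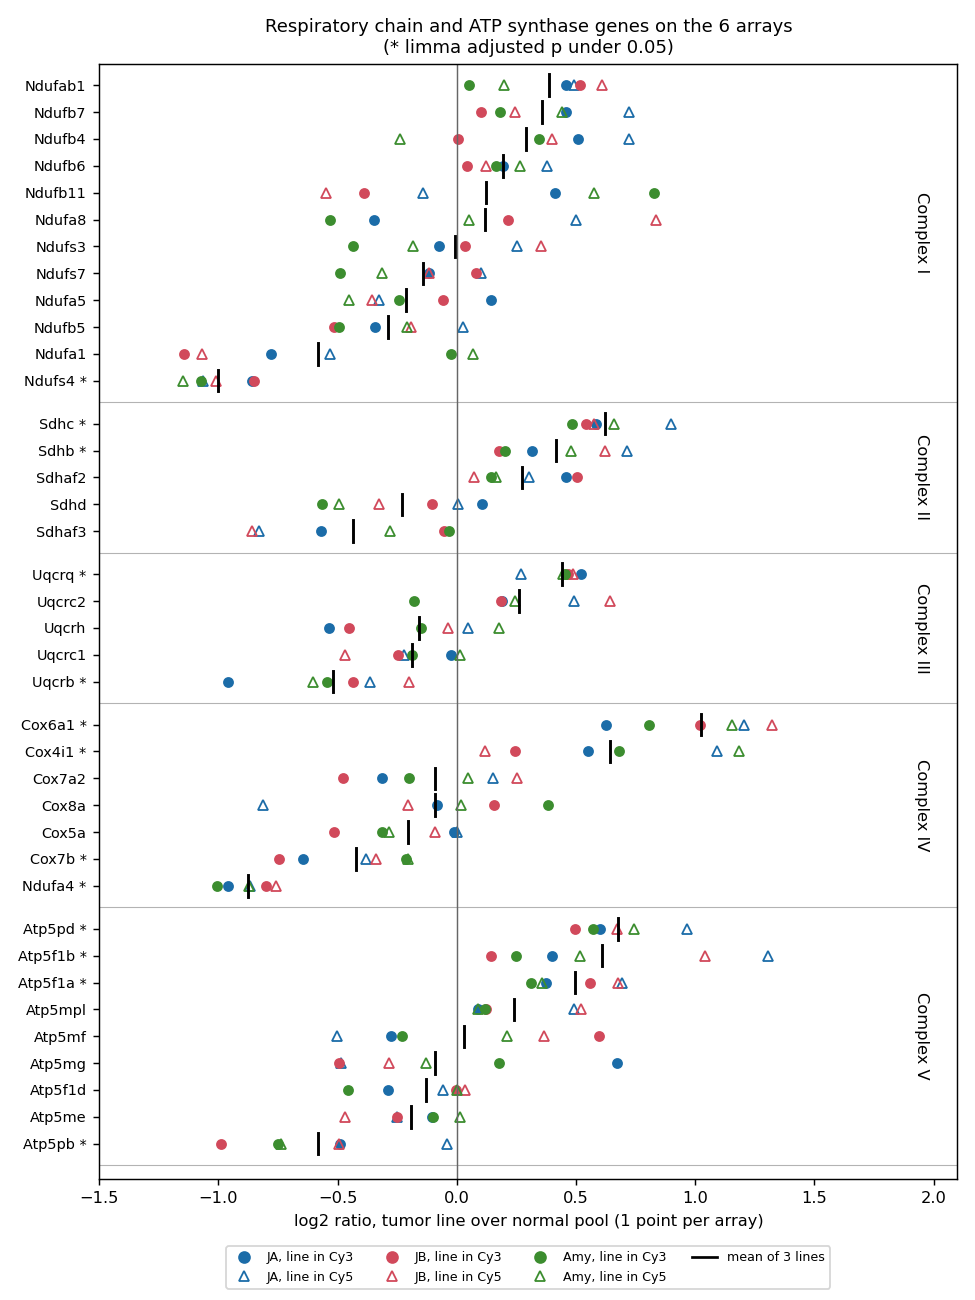
Log2 ratio of tumor line over normal pool (horizontal axis) for the 38 genes, grouped by complex, with 1 point for each of the 6 arrays (circle, line in Cy3; triangle, line in Cy5; colour, line) and a bar at the mean of the 3 lines. Cox6a1 lies to the right and Ndufs4 and Ndufa4 lie to the left of 0 on all 6 arrays, and 10 of the 38 means lie at least 0.5 from 0.

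Of the 13 calls, 3 held in all 19 alternative settings: Cox6a1, Ndufa4 and Ndufs4. How many of the calls among all features held in every setting was not counted. The pool enters this test as 1 control sample without any spread. With a spread allowed for it, as for the mean of 2 normal lines, 4 of the 38 genes passed, and with variances not moderated 5 passed. Without JA 4 passed, without JB 8 and without Amy 7, and the p-values rest on the spread among 3 lines. Calls among all features fell as well, from 3843 to 1970 with a spread for the pool and to 1040 without moderation. Of all features 2076 passed without JA, 3698 without JB and 2701 without Amy. The normal pool also differed from the tumor lines in markers of other cell types. All 8 measured fibroblast markers were lower in the tumor lines, with means from -9.00 to -1.73, as were 7 of 8 muscle markers, with means from -5.11 to 0.14 for the whole list. Of the muscle markers 4 were lower without JA, and 4 with a spread for the pool. Of the squamous epithelium list 3 of 19 genes were measured, Anxa1 at 1.39, Cstb at -0.68 (not passed without JA, adjusted p = 0.181, or without JB, 0.0742) and Lgals7 at -5.82, and no keratin of that list was measured by name. Any part of these marker differences in the results below was not tested.

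**Figure D2:**
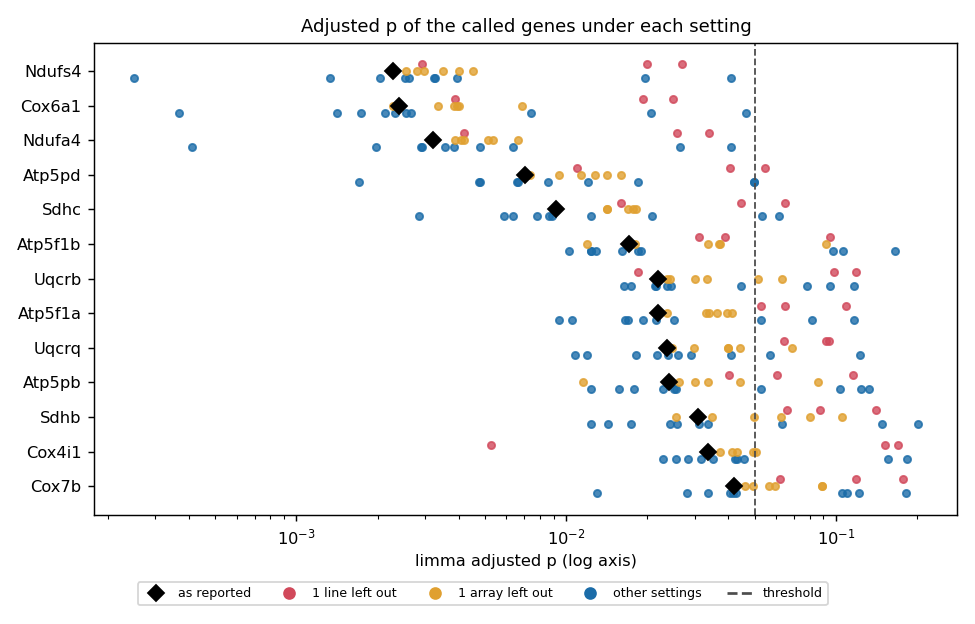
Adjusted p (horizontal axis, log scale) of the 13 called genes as reported (diamond) and in 19 other settings (circles; red, 1 line left out; yellow, 1 array left out; blue, other settings), with the threshold of 0.05 dashed. Ndufs4, Cox6a1 and Ndufa4 stay left of the threshold in each setting, with highest values of 0.0407, 0.0466 and 0.0410.

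Promoters are shown for the 10 called genes that had one in the RefSeq table (GRCr8), as the 120 bases before the annotated start of the transcript. Cox6a1, Atp5pd and Uqcrb, the remaining called genes, had no entry. Capitals mark matches to the ETS/GABP motif CCGGAAG on either strand, and the order is by mean ratio, highest first. The 6 genes higher in the tumor lines were Cox4i1 (chr19:65630263-65630382, plus strand), Sdhc (chr13:86098026-86098145, minus strand), Atp5f1b (chr7:1099938-1100057, plus strand), Atp5f1a (chr18:73567417-73567536, plus strand), Uqcrq (chr10:38089979-38090098, minus strand) and Sdhb (chr5:158547814-158547933, plus strand). The 4 lower genes were Cox7b (chrX:75148916-75149035, plus strand), Atp5pb (chr2:196123738-196123857, minus strand), Ndufa4 (chr4:40975560-40975679, minus strand) and Ndufs4 (chr2:47794915-47795034, minus strand).
Cox4i1: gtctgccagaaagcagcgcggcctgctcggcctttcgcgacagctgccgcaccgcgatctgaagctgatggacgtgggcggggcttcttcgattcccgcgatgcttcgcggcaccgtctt
Sdhc: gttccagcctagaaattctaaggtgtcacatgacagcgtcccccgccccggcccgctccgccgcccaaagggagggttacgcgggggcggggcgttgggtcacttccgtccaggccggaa
Atp5f1b: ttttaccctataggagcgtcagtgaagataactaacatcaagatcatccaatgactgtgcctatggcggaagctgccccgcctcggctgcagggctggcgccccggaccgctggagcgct
Atp5f1a: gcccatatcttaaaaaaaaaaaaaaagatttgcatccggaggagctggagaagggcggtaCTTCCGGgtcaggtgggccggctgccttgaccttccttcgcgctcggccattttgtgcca
Uqcrq: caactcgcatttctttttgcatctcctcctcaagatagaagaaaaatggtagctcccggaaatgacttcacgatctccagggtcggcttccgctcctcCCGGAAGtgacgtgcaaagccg
Sdhb: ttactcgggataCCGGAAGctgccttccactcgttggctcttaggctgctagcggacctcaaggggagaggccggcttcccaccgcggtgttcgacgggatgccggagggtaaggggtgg
Cox7b: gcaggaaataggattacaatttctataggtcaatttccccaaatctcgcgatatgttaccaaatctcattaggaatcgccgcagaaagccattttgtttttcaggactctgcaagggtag
Atp5pb: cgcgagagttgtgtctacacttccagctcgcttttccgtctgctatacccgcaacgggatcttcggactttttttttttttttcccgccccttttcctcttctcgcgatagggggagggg
Ndufa4: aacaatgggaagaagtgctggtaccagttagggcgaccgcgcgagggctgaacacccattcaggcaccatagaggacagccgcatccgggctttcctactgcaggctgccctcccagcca
Ndufs4: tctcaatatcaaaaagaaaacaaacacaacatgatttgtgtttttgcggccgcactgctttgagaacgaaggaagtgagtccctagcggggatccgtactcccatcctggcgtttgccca
Of these 10 sequences 3 hold a match, at -60 to -54 in Atp5f1a, at -108 to -102 in Sdhb and at -22 to -16 in Uqcrq, counted back from the start. The other 3 higher genes, Cox4i1, Sdhc and Atp5f1b, and the 4 lower ones hold no match to the 3 motifs searched in this stretch, which says only that these letters are not in it. Past the start, and so not shown, Cox4i1 holds ETS/GABP matches at 4 to 10 and at 24 to 30. Sdhc holds a YY1 match there at 4 to 10 and Ndufs4 at 5 to 11.

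Complex I, the NADH dehydrogenase, had 1 called gene of 12 (8.33%), and that gene was lower. Among all features 53.5% were called, 20.7% higher and 32.8% lower. Ndufs4, an accessory subunit of the arm that reaches into the matrix and a gene in which inherited defects cause Leigh syndrome in humans, was at -0.86 and -1.06 in JA, -0.85 and -1.01 in JB and -1.07 and -1.15 in Amy (here and below, line in Cy3, then in Cy5). All 6 arrays lay close together and below 0. Its mean was -1.001 ± 0.096 (SD, n = 3 lines), or 2.001-fold lower (adjusted p = 0.00227, limma), and its range over the alternatives was -1.07 to -0.88. The core subunits measured in the same arm did not pass: Ndufs7, which holds an iron-sulfur cluster, had a mean of -0.14 (95% interval -0.49 to 0.21) and Ndufs3 one of -0.0088. Ndufs3 was at -0.073 and 0.25 in JA, 0.035 and 0.35 in JB and -0.43 and -0.19 in Amy, so JB and Amy lay on opposite sides of 0. Ndufa5, an accessory subunit of this arm, had a mean of -0.22 (-0.52 to 0.090).

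Of the 8 complex I genes counted here with the membrane arm, Ndufab1 among them, none passed, and their means lay between -0.58 and 0.39. Ndufab1, the mitochondrial acyl carrier protein that is also a complex I subunit, had a mean of 0.39 ± 0.23 (adjusted p = 0.0645) and Ndufb7 one of 0.36 ± 0.21 (0.0742), and both were above 0 on all 6 arrays. Ndufb5 had a mean of -0.29 ± 0.11 (0.0914) and Ndufa1 one of -0.58 ± 0.57 (0.0873). With the dye orientation as a block these 4 passed, at an adjusted p of 0.0304 for Ndufab1, 0.0377 for Ndufb7, 0.0485 for Ndufb5 and 0.0441 for Ndufa1. Ndufab1 and Ndufb7 passed with centred arrays as well (0.0276 and 0.0358). The remaining accessory subunits were Ndufb4 at 0.29, Ndufb6 at 0.19, Ndufb11 at 0.12 and Ndufa8 at 0.12, and the mean of Ndufa8 was -0.22 over the Cy3 arrays and 0.46 over the Cy5 arrays.

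Complex II, which is succinate dehydrogenase and also an enzyme of the citric acid cycle, had 2 higher genes and none lower of 5. That is 40.0% called, against 53.5% of all features (20.7% higher and 32.8% lower). Sdhc, 1 of its 2 membrane anchors, was at 0.58 and 0.90 in JA, 0.54 and 0.57 in JB and 0.48 and 0.66 in Amy. Every array was above 0.4, and the mean was 0.62 ± 0.10, or 1.54-fold (adjusted p = 0.00917). Sdhb, the iron-sulfur subunit, was at 0.32 and 0.72 in JA, 0.18 and 0.62 in JB and 0.20 and 0.48 in Amy. Its mean was 0.42 ± 0.090 (adjusted p = 0.0308), and the 3 arrays with the line in Cy5 were all higher than those in Cy3. The other membrane anchor, Sdhd, was at 0.11 and 0.0035 in JA, -0.10 and -0.33 in JB and -0.57 and -0.49 in Amy, with a mean of -0.23 ± 0.29 (adjusted p = 0.253). The 2 anchors of the complex therefore had means of opposite sign, and only that of Sdhc passed. Sdhaf2, needed for the attachment of FAD to Sdha, was at 0.27 ± 0.11 (0.105), and Sdhaf3, a factor for the iron-sulfur subunit, at -0.44 ± 0.27 (0.0551), the first above and the other below 0 on all 6 arrays.

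The complex II calls did not all hold when a line was left out, which leaves fewer replicates. Among all features 3843 passed with the 3 lines and 2076 without JA. The line means in JA, JB and Amy were 0.74, 0.56 and 0.57 for Sdhc and 0.52, 0.40 and 0.34 for Sdhb. Without JA neither Sdhc (adjusted p = 0.0646) nor Sdhb (0.141) passed, and Sdhb did not pass without JB (0.0659) or Amy (0.0874) either. Leaving out the array with the line in Cy5 also ended the call of Sdhb, for JB (0.105), JA (0.0628) and Amy (0.0800). Sdhaf2 passed with centred arrays (0.0385). Sdhaf3 passed once the Cy3 array of JB (0.0485) or of Amy (0.0365) was dropped.

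Complex III, the cytochrome bc1 complex, had 1 gene higher and 1 lower of 5 (40.0% called, against 53.5% of all features). Uqcrq, a small subunit near the ubiquinone site, was at 0.52 and 0.27 in JA, 0.47 and 0.49 in JB and 0.45 and 0.45 in Amy. Its line means differed by only 0.083, and the mean was 0.44 ± 0.042 (adjusted p = 0.0236). Uqcrb, also a small subunit that binds near ubiquinone, was at -0.96 and -0.36 in JA, -0.43 and -0.20 in JB and -0.54 and -0.60 in Amy. All 6 values were below 0, with a mean of -0.52 ± 0.18 (adjusted p = 0.0219) and the arrays of JA furthest apart. The core proteins Uqcrc1 and Uqcrc2, which face the matrix, had means of -0.19 (95% interval -0.50 to 0.12) and 0.26 (-0.075 to 0.60). The hinge protein Uqcrh, which docks cytochrome c1, was at -0.54 and 0.048 in JA, -0.45 and -0.036 in JB and -0.15 and 0.18 in Amy (mean -0.16). In each line its ratio was lower with the line in Cy3. Uqcrq did not pass without JA (0.0922), JB (0.0643) or Amy (0.0946), or once the Cy3 array of JA was dropped (0.0691). Uqcrb did not pass without JA (0.118), without Amy (0.0988) or without the Cy3 array of JB (0.0513) or JA (0.0633).

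Complex IV, cytochrome c oxidase, had the widest spread of the 5 complexes, with 2 genes higher, 2 lower and an SD of 0.64 over its 7 means, against 0.45 over all 38. Its share of called genes was 57.1%, against 53.5% of all features. Cox6a1, the form of subunit VIa found in most tissues other than heart and skeletal muscle, was at 0.62 and 1.21 in JA, 1.02 and 1.32 in JB and 0.81 and 1.16 in Amy. It was the highest of the 38 genes in mean and above 0.6 on every array. Its mean was 1.02 ± 0.13, or 2.03-fold (adjusted p = 0.00240), and the alternatives ran from 0.82 to 1.23. Cox4i1, the common form of the largest nuclear subunit, was at 0.55 and 1.09 in JA, 0.24 and 0.12 in JB and 0.68 and 1.18 in Amy. JA and Amy overlapped and JB lay below both, and the mean was 0.64 ± 0.41 (adjusted p = 0.0336). Ndufa4 was at -0.96 and -0.87 in JA, -0.80 and -0.76 in JB and -1.01 and -0.87 in Amy, a narrow band well below 0. Its mean was -0.88 ± 0.085, or 1.84-fold lower (adjusted p = 0.00321).

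Cox7b, another small subunit of complex IV, was at -0.64 and -0.38 in JA, -0.74 and -0.34 in JB and -0.21 and -0.20 in Amy. All arrays were below 0, least in Amy, with a mean of -0.42 ± 0.19 (adjusted p = 0.0421). Its call was the least firm. It did not pass with centred arrays (0.110), without JA (0.177), JB (0.119) or Amy (0.0620), without the JB array in Cy3 (0.0890) or in Cy5 (0.0566), without the JA array in Cy3 (0.0891) or without the Amy array in Cy5 (0.0595). Cox4i1 did not pass without JA (0.170) or Amy (0.153) or with the Cy5 array of JA dropped (0.0507). The other subunits did not pass: Cox5a had a mean of -0.20, Cox8a of -0.091 and Cox7a2 of -0.090. Cox7a2 was at -0.32 and 0.15 in JA, -0.48 and 0.25 in JB and -0.20 and 0.049 in Amy, below 0 with each line in Cy3 and above 0 in Cy5. Its SD over lines of 0.019 is the lowest of the 38 because the dyes are averaged within a line, and does not cover this dye difference.

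Complex V, ATP synthase, had 3 genes higher and 1 lower of 9, and the calls lay in its catalytic F1 part and in its peripheral stalk. Its share of called genes was 44.4%, against 53.5% of all features (20.7% higher and 32.8% lower). Atp5f1a, the alpha subunit of F1, was at 0.38 and 0.69 in JA, 0.56 and 0.67 in JB and 0.31 and 0.36 in Amy. All arrays were above 0.3, lowest in Amy, with a mean of 0.49 ± 0.15 (adjusted p = 0.0219). Atp5f1b, the beta subunit, which carries the catalytic sites, was at 0.40 and 1.31 in JA, 0.14 and 1.04 in JB and 0.25 and 0.51 in Amy. Its mean was 0.61 ± 0.24 (adjusted p = 0.0172), made up of 0.26 for the line in Cy3 and 0.95 for Cy5. Atp5f1d, the delta subunit of the rotor stalk, had a mean of -0.13 (95% interval -0.43 to 0.18).

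The 2 measured genes of the peripheral stalk, which holds F1 still against the turning rotor, went opposite ways. Atp5pd, the d subunit, was at 0.60 and 0.96 in JA, 0.50 and 0.67 in JB and 0.57 and 0.74 in Amy, with a mean of 0.67 ± 0.100 (adjusted p = 0.00704). Atp5pb, the b subunit, was at -0.49 and -0.040 in JA, -0.99 and -0.50 in JB and -0.75 and -0.74 in Amy, with a mean of -0.58 ± 0.28 (adjusted p = 0.0240). The 6 arrays of Atp5pd were all above and those of Atp5pb all below 0. None of the 4 measured genes of the membrane part passed: Atp5mpl had a mean of 0.24, Atp5mf of 0.028, Atp5mg of -0.091 and Atp5me of -0.19. Atp5mf, the f subunit, was at -0.27 and -0.50 in JA, 0.60 and 0.37 in JB and -0.23 and 0.21 in Amy, so its mean near 0 stands for lines that differed. Atp5mpl passed with centred arrays (0.0483).

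Among the called genes of complex V, Atp5pd did not pass without JA (adjusted p = 0.0545) and Atp5f1b did not pass without JA (0.0953) or without the JB array in Cy5 (0.0924). Atp5f1a did not pass without JA (0.109), JB (0.0648) or Amy (0.0529). Atp5pb did not pass without JB (0.0604) or Amy (0.116), without the JA array in Cy3 (0.0859) or with centred arrays (0.0527).

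**Figure D3:**
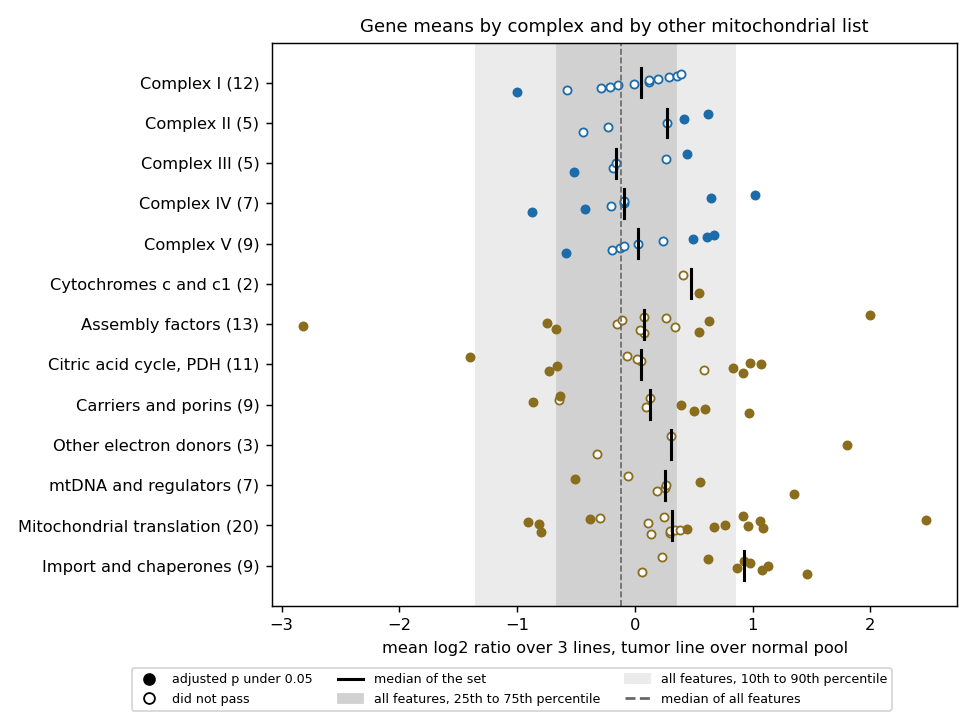
Mean log2 ratio over the 3 lines (horizontal axis) for each gene of the 5 complexes (blue) and of 8 other mitochondrial lists (brown), filled where the adjusted p was under 0.05, with the number of genes in brackets, a black bar at the median of each set, and grey bands and a dashed line for the percentiles and median of all 7180 features. The genes of the 5 complexes lie mostly within the 10th to 90th percentile band (-1.35 to 0.85), and the import and chaperone genes lie to the right, with a median of 0.93.

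The lines were next compared with each other gene by gene, within a dye orientation, so that the shared pool cancels. Each line is 1 replicate, so these differences have no test. A line was taken to stand apart where it differed from both other lines the same way by at least 0.5 in both orientations, which held for 13.8% of all features in some line but for 1 of the 38 genes. That gene was Ndufa1, an accessory subunit of complex I, which was higher in Amy than in JA and JB (1.99% of all features met the rule this way). No gene of the 38 met it in the other ways, which held among all features for 1.21% (JA higher), 1.91% (JA lower), 4.65% (JB higher), 2.92% (JB lower) and 1.94% (Amy lower). Ndufa1 was at -0.78 and -0.53 in JA, -1.15 and -1.07 in JB and -0.026 and 0.068 in Amy. The JA minus Amy difference was -0.75 with the lines in Cy3 and -0.60 in Cy5, and the JB minus Amy difference -1.12 and -1.13. Without Amy the mean of Ndufa1 was -0.88 and it passed (adjusted p = 0.0349).

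A few other genes differed between 2 of the lines without meeting that rule. Ndufb11, a further accessory subunit of complex I, was at 0.41 and -0.14 in JA, -0.39 and -0.55 in JB and 0.83 and 0.57 in Amy. Its JB minus Amy difference of -1.21 in Cy3 and -1.12 in Cy5 was the widest between 2 lines among the 38 genes in the mean of both orientations (-1.17), with JA in between. Cox4i1 was lower in JB than in Amy by 0.44 with the lines in Cy3 and by 1.07 in Cy5. Ndufa8 was higher in JB than in Amy by 0.75 and 0.78, although its ratios against the pool moved with the dye. In Atp5mf the JA minus JB difference was -0.87 in both orientations.

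**Figure D4:**
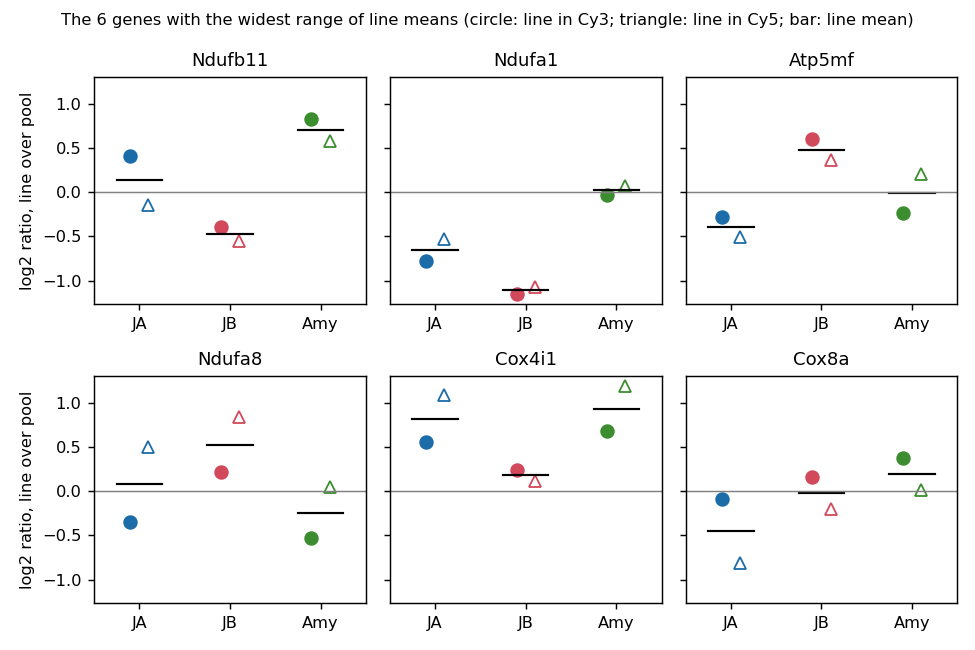
Log2 ratio of line over pool (vertical axis) in JA, JB and Amy for the 6 genes with the widest range of line means, with both arrays of each line as points (circle, line in Cy3; triangle, line in Cy5) and the line mean as a bar. Ndufa1 is near 0 in Amy and below -0.5 on the arrays of JA and JB, and Ndufb11 runs from -0.47 in JB to 0.70 in Amy.

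Counted against the pool, 14 of the 38 genes reached at least 0.5 with 1 sign on both arrays of some line, against 56% of all features. In JA 5 were that much higher (16.5% of all features) and 4 lower (26.4%), in JB 4 higher (14.9%) and 3 lower (22.7%), and in Amy 4 higher (14.0%) and 4 lower (25%). The genes that far above 0 were Atp5pd, Cox4i1, Cox6a1, Ndufb4 and Sdhc in JA, Atp5f1a, Cox6a1, Ndufab1 and Sdhc in JB, and Atp5pd, Cox4i1, Cox6a1 and Ndufb11 in Amy. Those that far below 0 were Ndufa1, Ndufa4, Ndufs4 and Sdhaf3 in JA, Ndufa1, Ndufa4 and Ndufs4 in JB, and Atp5pb, Ndufa4, Ndufs4 and Uqcrb in Amy. Neither of the 2 Ndufb4 clones was above 0 on both arrays of JA (-1.97 and 1.61, and 2.99 and -0.17). Ndufb4 is counted among the 5 and the 14 only through the average of these clones. In all 3 lines Cox6a1 was that far above (8.4% of all features) and Ndufa4 and Ndufs4 that far below (16.4%). By complex, the median line mean of the 5 complex II genes was 0.38 in JA, 0.29 in JB and 0.15 in Amy. These values are those of the assembly factor Sdhaf2. For the 3 subunits alone the medians were 0.52, 0.40 and 0.34 in the same order. For complex I the medians were 0.083, 0.033 and -0.11. The complex V median was 0.092 in JA, 0.32 in JB and 0.025 in Amy, values smaller than the spread among the genes of complex V.

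Repeated clones gave a measure of error that the SD over lines leaves out. In all 14 genes with several clones, the clones of a gene carry the same sequence record. Agreement between them shows repeatability of the spots, and whether they are independent probes of the gene is not known. Of the 38 genes, 24 were measured by 1 clone, among them Ndufs4, Ndufa4, Cox6a1 and Cox4i1, and 14 by 2 or 3. The clones of these 14 genes differed by a median of 0.27 in mean ratio, and 0 of the 14 by at least 1, against a median of 0.53 and 29.5% among the 655 named genes with several clones. The 3 clones of Sdhc had means of 0.58, 0.64 and 0.65, those of Atp5f1a 0.47 and 0.52 and those of Atp5pd 0.57 and 0.78. Those of Cox7b, the remaining called gene with several clones, had means of -0.59 and -0.25. Its second clone was near 0 in Amy (0.067 and -0.018) and on the Cy5 array of JA (-0.043). In contrast, the clones of Ndufb6 had means of -0.22 and 0.61, and those of Atp5mf -0.31 and 0.36. Their gene means of 0.19 and 0.028 therefore average clones of opposite sign. In 6 of the 14 genes the clones differed in sign. The 2 clones of Ndufb4 moved in opposite directions with the dye, with -1.97 and 1.61 in JA for one and 2.99 and -0.17 for the other, so its gene mean of 0.29 averages values far apart. Across the 38 genes the Cy3 and Cy5 arrays correlated at 0.71 for JA, at 0.79 for JB and at 0.86 for Amy.

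Other mitochondrial genes were taken from lists of the pathways that build and feed these complexes. The list of import and chaperones had 7 of 9 measured genes higher, none lower and a median of 0.93. Without JA 6 were higher, and 5 with a spread for the pool. Its largest changes were the chaperonin Hspd1 at 1.46 ± 0.48 (adjusted p = 0.00384), the outer membrane receptor Tomm70 at 1.13 ± 0.38 (0.00511), Tomm34 at 1.08 ± 0.32 (0.00455) and Timm9, which escorts proteins across the space between the membranes, at 0.98 ± 0.26 (0.00447). Mitochondrial translation had 8 higher and 4 lower of 20, median 0.32, but 5 higher and 2 lower without JA, and 4 higher and 1 lower with a spread for the pool. Its largest changes were the ribosomal proteins Mrps18b at 2.48 ± 0.46 (8.15e-04), Mrpl30 at 1.09 ± 0.24 (0.00301), Mrps17 at 1.06 ± 0.17 (0.00248) and Mrpl36 at 0.96 ± 0.41 (0.00970; 0.0644 without JA). The background is again 20.7% higher and 32.8% lower.

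The enzymes that feed the chain moved both ways. The citric acid cycle and pyruvate dehydrogenase list had 4 higher and 3 lower of 11, median 0.054, but 4 higher and 1 lower without JA. That is 63.6% called with the 3 lines, against 53.5% of all features (20.7% higher and 32.8% lower). Malate dehydrogenase (Mdh2) was at 1.07 ± 0.21 (adjusted p = 0.00279), the pyruvate dehydrogenase subunit Pdha1 at 0.98 ± 0.24 (0.00416) and citrate synthase (Cs) at 0.92 ± 0.10 (0.00292). Pdk4, a kinase that inactivates pyruvate dehydrogenase, was at -1.396 ± 0.56 (0.00610, and 0.0563 without JA). The remaining calls of the list were Ogdh at -0.73 ± 0.16 (0.00702, and 0.0548 without JA), Sucla2 at -0.66 ± 0.075 (0.00703) and Suclg2 at 0.84 ± 0.038 (0.00335). Pdhb, another pyruvate dehydrogenase subunit, did not pass (mean 0.054, adjusted p = 0.844). Its line means were 0.43 in JA, -0.51 in JB and 0.25 in Amy. Of the electron carriers, cytochrome c (Cycs) was at 0.55 ± 0.25 (0.0259), a call lost without JA (0.134) or JB (0.0554), and cytochrome c1 (Cyc1), the complex III subunit that the symbol rule leaves out, at 0.41 ± 0.26 (0.0634), which passed with the dye orientation as a block (0.0296) and with centred arrays (0.0288).

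In the short list of other electron donors to ubiquinone, 1 of 3 genes passed (33.3%, against 53.5% of all features). Dhodh, which feeds electrons from pyrimidine synthesis to ubiquinone, was at 1.803 ± 0.56 (adjusted p = 0.00291), with 3.26 and 0.98 in JA, 2.06 and 0.26 in JB and 2.47 and 1.79 in Amy. Its Cy3 and Cy5 arrays differ by more than its SD over lines. Etfa, a subunit of the flavoprotein that takes electrons from fatty acid oxidation, was at -0.32 ± 0.14 (0.0758), and Nnt, a proton-driven transhydrogenase that does not itself reduce ubiquinone, at 0.31 ± 0.19 (0.0990). Etfa passed with the dye orientation as a block (0.0488) and Nnt with centred arrays (0.0437).

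Assembly factors other than Sdhaf2 and Sdhaf3 had 3 higher and 3 lower of 13, median 0.075, but 1 higher and 2 lower without JA, and the same with a spread for the pool. That is 46.2% called with the 3 lines, against 53.5% of all features (20.7% higher and 32.8% lower). The lowest was Atpaf2, a chaperone for the alpha subunit of F1, at -2.82 ± 0.78 (adjusted p = 0.00181), and the highest Aifm1, a flavoprotein needed for complex I biogenesis, at 1.999 ± 0.31 (7.69e-04). Atpaf2 was at -3.42 and -3.40 in JA, -2.12 and -1.75 in JB and -3.25 and -2.97 in Amy. All 6 arrays were below -1.7. Acad9, a complex I assembly factor, was at -0.75 ± 0.10 (0.00527), with a call that was lost when only the Cy3 arrays were used (0.160), and Cox17, a copper chaperone of complex IV, at -0.67 ± 0.31 (0.0184), lost without JA (0.109) or Amy (0.0930). Carriers and porins had 4 higher and 2 lower of 9 (66.7% called), median 0.13, but 1 higher and 1 lower without JA, and the same with a spread for the pool. They included the citrate carrier Slc25a1 at 0.97 ± 0.29 (0.00524), the oxoglutarate carrier Slc25a11 at 0.60 ± 0.17 (0.0132), the porin Vdac2 at -0.86 ± 0.066 (0.00324) and the pyruvate carrier subunit Mpc2 at -0.64 ± 0.16 (0.0104). Without JA, Slc25a11 (0.0808) and Mpc2 (0.0691) did not pass.

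Regulators had 2 higher and 1 lower of 7, median 0.26, but 1 higher and 0 lower without JA, and the same with a spread for the pool. That is 42.9% called with the 3 lines, against 53.5% of all features (20.7% higher and 32.8% lower). The mitochondrial DNA polymerase Polg was at 1.36 ± 0.44 (adjusted p = 0.00405), the GABP subunit gene Gabpb1 at 0.55 ± 0.22 (0.0217) and the nuclear receptor Esrra at -0.51 ± 0.19 (0.0240). Gabpb1 did not pass without JA (0.115) or JB (0.0609), and Esrra did not pass without JA (0.126) or Amy (0.111).

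Short motifs were counted in the promoters of the 34 genes that had one in the RefSeq table, over 250 bases before and 50 after the start, on both strands. The ETS/GABP motif CCGGAAG was in 15 of 34 promoters (44.1%), against 17.5% of the promoters of genes measured by name on the array and 8.75% of all promoters. The NRF1 motif GCGCATG was in 5 (14.7%), against 7.24% and 3.77%, and the YY1 motif AAGATGG in 8 (23.5%), against 8.13% and 7.01%. At least 1 of the 3 was in 21 promoters (61.8%), against 29.1% and 17.8%. Of the 15 genes with the ETS/GABP motif, 4 were higher and 0 lower, with a median of -0.090. Of the 5 with the NRF1 motif 1 was higher and 0 lower (median -0.091), and of the 8 with the YY1 motif 1 was higher, Sdhc, and 1 lower, Ndufs4 (median -0.12). Of the 13 with none of the motifs 1 was higher and 3 lower (median -0.13). Among all features 20.7% were higher and 32.8% lower, and these groups are too small to read a difference from such counts. A match is a string of letters and not a measured binding site.

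**Figure D5:**
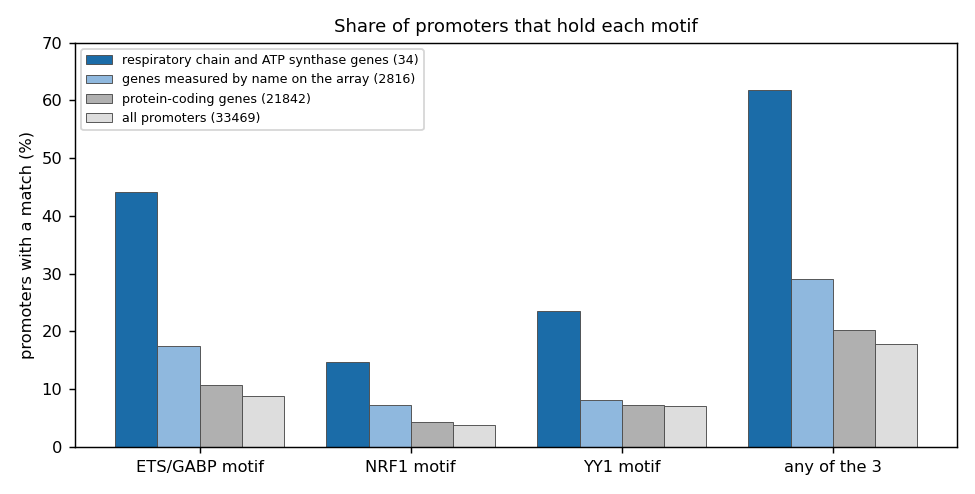
Percentage of promoters with at least 1 match (vertical axis) to each motif and to any of the 3, for the 34 promoters of respiratory chain and ATP synthase genes, 2816 of genes measured by name on the array, 21842 of protein-coding genes and 33469 in all. The bars of the respiratory chain and ATP synthase genes are the highest for each motif.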

How the data were processed

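Two-colour log ratios of 6 arrays were used. The log2 ratios were used as deposited, 1 per spot and array. The authors' scanner, background correction and normalization are unknown here, since none of the sources used name them, and intensities were not analysed, so precision is limited by the number of arrays and dim spots cannot be told apart. Dye-swapped arrays already shared a direction (correlations of 0.844, 0.815 and 0.888 for JA, JB and Amy), so no sign was changed. Of 16128 spots, the platform annotation gave 8084 a single symbol, 40 more than 1 and 8004 no symbol; 3154 of 3158 named genes matched RefSeq GRCr8 by gene identifier, with 0 symbols changed. Spots were averaged per symbol, or per clone without a single symbol, which gave 7180 features.

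The arrays of a line were averaged, and limma 3.58.1 (R 4.3.3) tested whether the mean of 3 lines differs from 0 by a two-sided moderated test. P-values were adjusted by Benjamini-Hochberg across all features, with a threshold of 0.05, after a check on simulated data. The simulated data had independent noise for each line and no error of the shared pool or of the dyes. The check therefore does not cover those errors. Intervals are 95% intervals of the limma fit. The labels' dye orientation pairs arrays across lines: the Cy5 minus Cy3 differences correlated at 0.613, 0.552 and 0.526 between lines. Genes and lists were chosen with earlier results of these data known. Values on all arrays were given for called genes, for genes that set a line apart and for the gene nearest 0 in each complex, and up to 4 genes per other list by size among those with 1 sign on all arrays, or all genes of a list with 3 or fewer measured; Ndufb11, Cox8a, Ndufa8, Ndufb4, Dhodh, Atpaf2 and the genes with several clones were chosen for more detail after their values were seen. Ogdh, Sucla2, Suclg2 and Pdhb were likewise named after their values were seen. Figures were drawn with matplotlib 3.10.9.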

Additional observations from a re-analysis of the deposited data

Results flagged for a closer look

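Some genes had ratios of opposite sign in 2 lines, on both arrays of each; these differences have 1 replicate per line and were not tested. Ndufb11 had a JB minus Amy difference of -1.17, from line means of -0.47 in JB and 0.70 in Amy. Atp5mf had a JA minus JB difference of -0.87, from -0.39 in JA and 0.48 in JB. Cox8a, a small subunit of complex IV, had a JA minus Amy difference of -0.65, from -0.45 in JA and 0.20 in Amy. Ndufs3 had a JB minus Amy difference of 0.50, from 0.19 in JB and -0.31 in Amy. Sdhd had a JA minus JB difference of 0.27 and a JA minus Amy difference of 0.58, from 0.055 in JA, -0.22 in JB and -0.53 in Amy.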

How the results depend on the processing

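Among all features 3843 passed, 1970 with a spread for the pool, 1040 without moderation, 1744 of the 3158 named genes tested alone, 2290 at an adjusted p under 0.01 and 2076 to 3716 with 1 line or array left out. Among the 38 genes 13 passed, 4 with a spread for the pool, 5 without moderation, 5 at 0.01 and 4 to 14 with 1 line or array left out. Cox6a1, Ndufa4 and Ndufs4 passed in all 19 settings. With the dye orientation as a replicate block and line as a random block (consensus correlation 0.622) 17 passed, the 13 and 4 more given above, with 3913 of all features. The median of the 38 means, -0.049, was 0.073 with centred arrays, -0.011 with the line in Cy3, 0.044 in Cy5, -0.091 with single clones, -0.0088 without features that disagreed between dyes, and -0.094 to 0.015 with 1 line or array left out, so its sign is not fixed. With only Cy3 arrays of the lines, Atp5f1a, Atp5f1b and Sdhb did not pass, and with only Cy5 arrays Atp5pb, Cox7b, Uqcrb and Uqcrq did not. No called gene changed sign. At a size of 1, 0 genes set a line apart and 3 passed in some line. The cause of these shifts was not tested, and signal over background, which would bound them, was not analysed here.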

Other observations

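Vdac3, a porin of the outer mitochondrial membrane, had a pattern like that of Ndufa1 across the lines. It was at -0.80 and -0.73 in JA, -1.25 and -1.20 in JB and 0.086 and 0.021 in Amy. It was chosen for this after its values were seen, and 143 features in all were higher in Amy than in both other lines by the same rule.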
